A study of Saccharomyces cerevisiae with 2 samples.

Results

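The tricarboxylic acid cycle enzymes of yeast mitochondria, other than succinate dehydrogenase, were described through 10 genes of 5449 measured. They are CIT1, ACO1, IDH1, IDH2, KGD1, KGD2, LSC1, LSC2, FUM1 and MDH1. The genes were picked by symbol, but with earlier results of these data known. Each had exactly 1 matching probe set, none with the suffix letter that marks possible cross-hybridization. Total RNA was compared between budding yeast carrying the temperature-sensitive allele acs2-Ts1 and yeast carrying wild-type ACS2, both held at 37 °C for 60 min in the rich medium YPD. ACS2 encodes the acetyl-CoA synthetase that makes acetyl-CoA from acetate in the cytosol and nucleus. Both strains derive from BY4741, are of mating type a and carry his3delta1, leu2delta0, met15delta0 as well as ura3delta0. In both the chromosomal ACS2 gene is replaced by HygMX, and the allele under study sits on a centromeric plasmid with URA3, pHT215 for acs2-Ts1 and pHT112-1 for wild type. Each strain is represented by 1 deposited sample, the authors' mean of 2 arrays, so no test was possible, and a transcript called "higher" or "lower" is so in the acs2-Ts1 sample. There is no sample at a lower temperature, so differences between the strains or plasmids at any temperature cannot be told apart from those that come with the impaired enzyme.

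The cycle takes up acetyl units in mitochondria, where citrate synthase joins them to oxaloacetate, and returns them as carbon dioxide and reduced cofactors. Its opening steps, up to 2-oxoglutarate, also supply the carbon skeleton of glutamate, and the later steps regenerate oxaloacetate for the next turn. In yeast growing on glucose the cycle genes are partly repressed. CIT1, ACO1, IDH1 and IDH2 are known targets of the retrograde pathway, in which Rtg1 and Rtg3 act when respiration is weak, while many cycle genes, KGD1 and KGD2 among them, are activated by the HAP complex.

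Expression is given as the intensity of a probe set, on a linear scale, after the authors normalized it to controls. The median log2 ratio of all genes was -1.12, so a transcript at the level of wild type lies well above most others, and member values are also given relative to that median. As a yardstick within the arrays, the log2 ratios of probe sets that share a gene had a pooled SD of 0.40 over 34 genes, and 27 hybridization controls ranged from -0.45 to 0.27. This yardstick does not cover the spread between cultures. A value over the pooled SD is not by that alone separated from no difference. Which controls the authors normalized to is not given, so the narrow range of the hybridization controls may come from that step. The background limit, the 95th percentile of probe sets for genes of other species, was 46.3 in acs2-Ts1 and 49.1 in wild type, and all 10 members were above it in both samples. The transcript of the deleted gene LEU2 read 77.5 in acs2-Ts1 and 68.0 in wild type, so values in that range may be background. The STE2 receptor of mating type a cells was bright, at 2090 in acs2-Ts1 and 3398 in wild type. Of genes of the opposite type, the pheromone gene MF(ALPHA)1 read 21.0 in acs2-Ts1 and 25.5 in wild type. MF(ALPHA)2 read 61.8 and 64.5 in the same order, over the background limit but in the range of LEU2. STE3 read 59.0 in acs2-Ts1 but 214 in wild type, so not all genes of the opposite type were at background. HIS3, listed as a his3delta1 allele, still read 882 in acs2-Ts1 and 1650.1 in wild type. The plasmid marker URA3 was 3.81-fold higher in acs2-Ts1, at 7059.5 against 1853 in wild type, and its part in the differences below was not tested. ACS2, carried on the same plasmids, read 12426 in acs2-Ts1 and 10257 in wild type, a log2 ratio of 0.28, within the pooled SD.

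The 10 transcripts divided along the order of the cycle. The 4 genes from oxaloacetate to 2-oxoglutarate were at or somewhat above the wild-type level, with log2 ratios from 0.10 to 0.49. The 6 genes from 2-oxoglutarate back to oxaloacetate were all lower, with log2 ratios from -1.66 to -0.34. This division was drawn after the values were seen. In all, 6 of 10 members were lower, against 86.4% of all genes, and 4 of 10 were higher, against 13.6% of all genes. Lower by 2-fold or more were 4 members, namely KGD1, KGD2, FUM1 and MDH1, against 55.9% of all genes, and 0 were higher by that much, against 3.67%. At 1.5-fold the counts were again 4 lower and 0 higher, against 72% and 6.04% of all genes, and at 3-fold they were 1, which is FUM1, and 0, against 25.8% and 1.58%. The median log2 ratio of the 10 was -0.44, which is 0.68 above that of all genes.

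**Figure D1:**
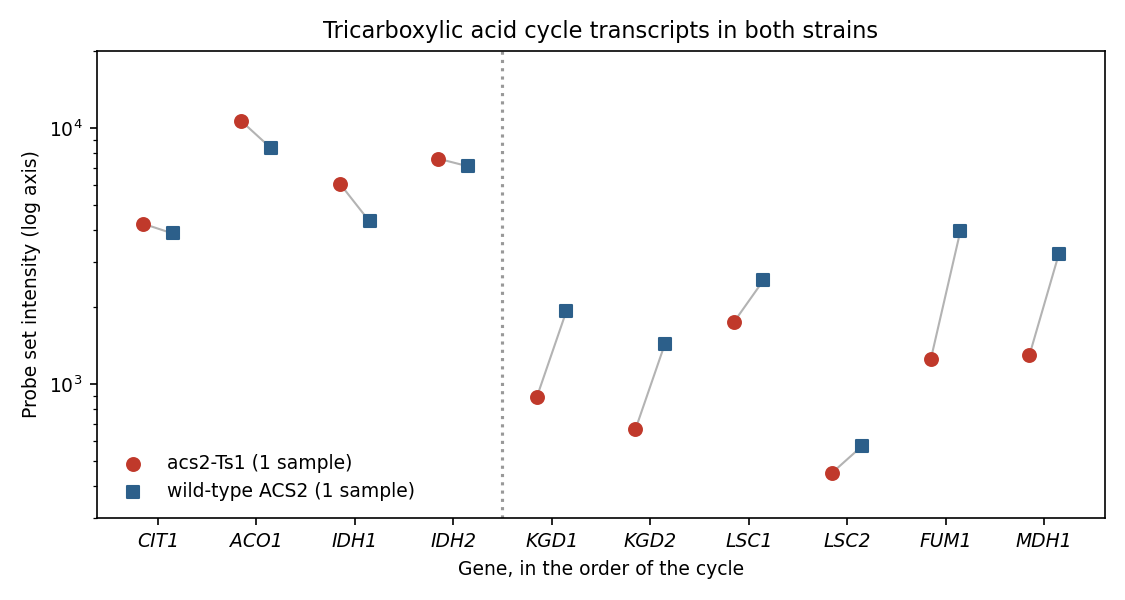
Probe set intensity on a log axis for each cycle gene, with acs2-Ts1 as circles on the left of each pair, wild-type ACS2 as squares on the right and 1 sample per strain. Left of the dotted line CIT1, ACO1, IDH1 and IDH2 lie slightly higher in acs2-Ts1, and right of it all 6 genes lie lower, with the steepest line for FUM1, at 1254 in acs2-Ts1 and 3968 in wild type.

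CIT1, the mitochondrial citrate synthase that opens the cycle, read 4225 in acs2-Ts1 and 3870.0 in wild type, a log2 ratio of 0.13. ACO1, the aconitase that turns citrate into isocitrate and holds an iron-sulfur cluster, read 10614 in acs2-Ts1 and 8331 in wild type, a log2 ratio of 0.35. Both differences lie within the pooled SD of probe sets of the same gene, so on these arrays they are not separated from no difference. Relative to the median of all genes the ratios were 1.25 for CIT1 and 1.47 for ACO1.

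The NAD-dependent isocitrate dehydrogenase is built from the regulatory subunit Idh1 and the catalytic subunit Idh2. IDH1 had the highest ratio of the 10, with 6048 in acs2-Ts1 against 4311 in wild type, a log2 ratio of 0.49 that lies just over the yardstick. Of all genes, 93.2% had a lower ratio than IDH1. IDH2 read 7574 in acs2-Ts1 and 7077 in wild type, a log2 ratio of 0.10. The subunits differed from each other by 0.39 in log2 ratio, within the pooled SD of probe sets.

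The next enzyme, the 2-oxoglutarate dehydrogenase complex, was lower as a whole. KGD1, its dehydrogenase component, read 891 in acs2-Ts1 and 1930.2 in wild type, 2.17-fold lower. KGD2, its lipoic-acid-bearing succinyltransferase component, read 665 in acs2-Ts1 and 1436 in wild type, 2.16-fold lower. The log2 ratios of these partners differed by only -0.0036 (KGD1 minus KGD2). Both sit almost exactly at the median of all genes, 0.0092 above it for KGD1 and 0.013 for KGD2, so their 2-fold difference is that of a typical transcript here. The lipoamide dehydrogenase LPD1, shared with pyruvate dehydrogenase, read 1280 in acs2-Ts1 and 3258 in wild type, 2.55-fold lower. KGD4, which tethers that subunit to the complex, read 232 in acs2-Ts1 and 638 in wild type, 2.75-fold lower. All 4 components thus had log2 ratios between -1.46 and -1.11.

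Succinyl-CoA ligase, which releases succinate, showed the smallest differences after that point. LSC1, the alpha subunit, read 1745 in acs2-Ts1 and 2540.35 in wild type, a log2 ratio of -0.54. LSC2, the beta subunit, read 451 in acs2-Ts1 and 572 in wild type, a log2 ratio of -0.34, within the yardstick. Relative to all genes both were higher, by 0.58 and 0.78, so their direction depends on the scaling.

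Fumarase and malate dehydrogenase, which close the cycle, had the lowest ratios among the 10. FUM1, whose single gene supplies fumarase to both mitochondria and cytosol, read 1254 in acs2-Ts1 and 3968 in wild type, 3.16-fold lower. MDH1, the mitochondrial malate dehydrogenase, read 1294 in acs2-Ts1 and 3227 in wild type, 2.49-fold lower. They were the only members below the median of all genes, by -0.54 for FUM1 and -0.19 for MDH1, and 22.5% of all genes had a lower ratio than FUM1. The subunits of succinate dehydrogenase, which stands between the ligase and fumarase, were lower in 4 of 4 cases, against 86.4% of all genes, 2 of them by 2-fold or more, against 55.9%. SDH1, the flavoprotein subunit, was 2.48-fold lower and SDH3, a membrane anchor, 2.34-fold lower. SDH4, the other anchor, had a log2 ratio of -0.90 and SDH2, the iron-sulfur subunit, one of -0.68. With these and with LPD1 and KGD4, all 12 genes measured for the return from 2-oxoglutarate to oxaloacetate were lower, against 86.4% of all genes, and 8 of them by 2-fold or more, against 55.9%. Their median of -1.17 lay close to that of all genes.

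Across the arrays, ratios were nearer to 0 for bright probe sets, and also for the dimmest, than for those between. The 4 genes of the opening steps are read by bright ones. A lowess curve of log2 ratio on mean intensity over all genes gave a trend of -0.39 at the intensity of CIT1, -0.28 at that of IDH1, -0.11 at that of IDH2 and 0.00 at that of ACO1. With this trend subtracted, all 4 were still above it, by 0.77 for IDH1, 0.52 for CIT1, 0.35 for ACO1 and 0.21 for IDH2. CIT1 and IDH1 exceeded the pooled SD of probe sets, and ACO1 and IDH2 did not. FUM1 was below the trend by -0.97 and MDH1 by -0.58. KGD1, at -0.19, KGD2, at -0.09, and LSC1, at 0.18, lay near it. LSC2 was the highest of the 10 on this scale, at 0.85, so the division along the cycle order is not kept once the trend is removed: 6 members were then above the trend, against 49.1% of all genes.

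**Figure D2:**
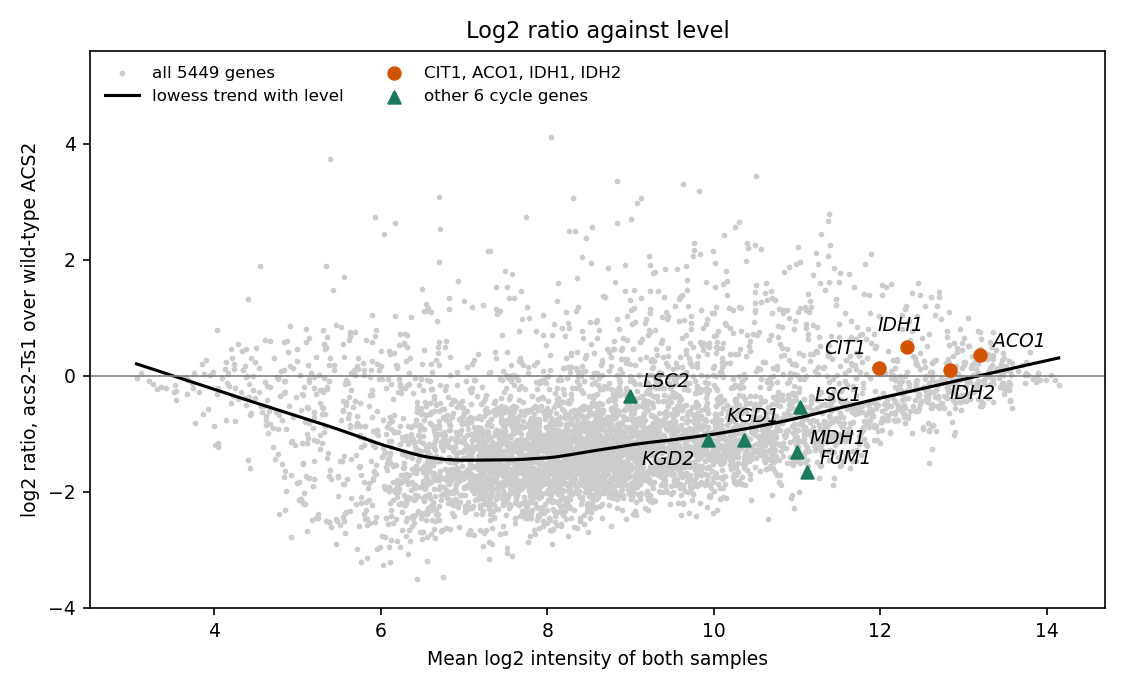
Log2 ratio (acs2-Ts1 over ACS2) against the mean log2 intensity of both samples, with all 5449 genes in grey and the lowess trend as a black line. CIT1, ACO1, IDH1 and IDH2 (circles) lie at the bright end above the line by 0.21 to 0.77, while FUM1 and MDH1 among the other 6 cycle genes (triangles) lie below it by -0.97 and -0.58.

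The choice of scaling therefore decides the direction of several members. Centred on the median of all genes, which assumes no global difference, 8 of 10 members were higher, against 50% of all genes. Of these 8, KGD1 at 0.0092 and KGD2 at 0.013 were in effect level. The 4 genes of the opening steps were then higher by 2-fold or more, against 16.4%, and 0 members were lower by that much, against 6.61%. Over all genes the 2-fold threshold was then passed by 896 higher and 360 lower genes, in place of 200 and 3048 as deposited. IDH1 and FUM1 stood at opposite sides of 0 on all 3 scales.

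**Figure D3:**
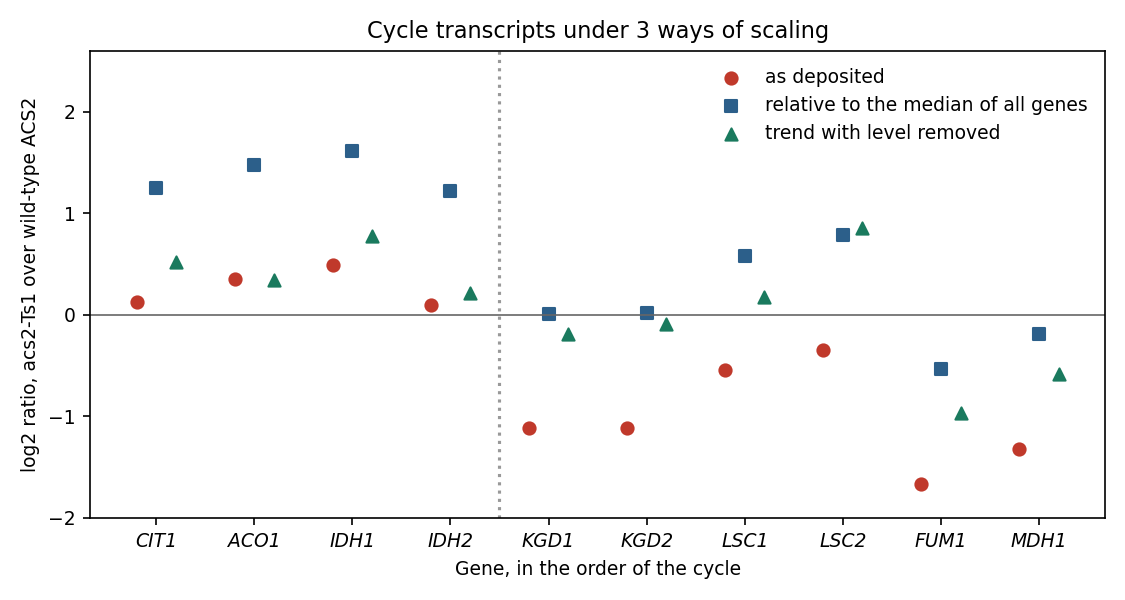
Log2 ratio (acs2-Ts1 over ACS2) for each cycle gene as deposited (circles), relative to the median of all genes (squares) and with the trend with level removed (triangles), 1 sample per strain. CIT1, ACO1, IDH1 and IDH2 are above 0 on all 3 scales and FUM1 and MDH1 below 0 on all 3, while LSC1 and LSC2 change sign with the scaling and KGD1 and KGD2 lie close to 0 once scaled.

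Isozymes of the cycle enzymes that work elsewhere or at low levels were mixed. Of 7, 3 read higher, against 13.6% of all genes, and 4 read lower, against 86.4%. Among the higher ones, however, IDP1 was level in both samples and CIT3, with a log2 ratio of 0.20, lay within the yardstick. IDP2 and IDP3 among the lower ones were near background. CIT2, the peroxisomal citrate synthase and the classic target of the retrograde pathway, read 9998 in acs2-Ts1 and 3896 in wild type, 2.57-fold higher, whereas its mitochondrial counterpart CIT1 had a log2 ratio of 0.13. CIT3, a minor mitochondrial citrate synthase, read 104 in acs2-Ts1 and 90.8 in wild type. For isocitrate dehydrogenases that use NADP, the mitochondrial IDP1 read 2632 in acs2-Ts1 and 2627 in wild type. The cytosolic IDP2 read 39.7 in acs2-Ts1 and 69.5 in wild type, and the peroxisomal IDP3 read 21.7 and 131 in the same order, with the acs2-Ts1 values under the background limit, so no fold is given. The cytosolic malate dehydrogenase MDH2 read 799 in acs2-Ts1 and 871 in wild type, within the yardstick. The peroxisomal MDH3 was 3.35-fold lower, at 291 in acs2-Ts1 and 974 in wild type. The mitochondrial and peroxisomal malate dehydrogenase genes were thus both at least 2-fold lower, as were 55.9% of all genes. The cytosolic one was not. Relative to the median of all genes MDH1 stood at -0.19, MDH3 at -0.62 and MDH2 at 1.00.

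Genes that bring carbon into the cycle differed in both directions. PYC1, a pyruvate carboxylase that makes oxaloacetate in the cytosol, read 9267 in acs2-Ts1 and 4482 in wild type, 2.07-fold higher. Its paralogue PYC2 read 1478 in acs2-Ts1 and 1902 in wild type, a log2 ratio of -0.36. The mitochondrial pyruvate carrier pairs Mpc1 with either Mpc2, used in fermentation, or Mpc3, used in respiration. MPC3 was 6.50-fold higher, at 1312 in acs2-Ts1 and 202 in wild type, and MPC2 1.93-fold higher, at 7254 and 3765 in the same order. MPC1, the partner of both, was 3.08-fold lower, at 499 in acs2-Ts1 and 1534 in wild type. In the pyruvate dehydrogenase complex LAT1 and PDX1 were 3.01-fold and 3.81-fold lower, while PDA1 and PDB1, of its dehydrogenase component, had log2 ratios of -0.45 and -0.81. Of the list of anaplerosis and the glyoxylate cycle, 2 of 7 genes were higher by 2-fold or more, against 3.67% of all genes, namely PYC1 and the isocitrate lyase gene ICL1 (2.88-fold, at 283 in acs2-Ts1 and 98.1 in wild type), and 2 were lower by as much, against 55.9%, namely the malic enzyme gene MAE1 (2.52-fold) and PCK1 of gluconeogenesis (2.24-fold). The malate synthase gene MLS1 read 51.7 in acs2-Ts1 and 51.3 in wild type, near background.

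Glutamate draws on the 2-oxoglutarate that IDH1 and IDH2 help to make. GDH1, the main glutamate dehydrogenase for synthesis, read 2767 in acs2-Ts1 and 2064 in wild type, a log2 ratio of 0.42. GLN1, the glutamine synthetase, read 9160.1 in acs2-Ts1 and 6607 in wild type, a log2 ratio of 0.47. Both lie just over the yardstick. GDH2, the dehydrogenase that degrades glutamate, was 2.23-fold lower, at 505 in acs2-Ts1 and 1125 in wild type. PUT1, proline oxidase, was 3.01-fold higher, at 1915 in acs2-Ts1 and 637 in wild type, while PUT2, the following enzyme on the way to glutamate, had a log2 ratio of -0.89. In this list of 9 genes, 3 were higher, against 13.6% of all genes, 2 were lower by 2-fold or more, against 55.9%, and the median was -0.52, which is 0.61 above all genes.

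**Figure D4:**
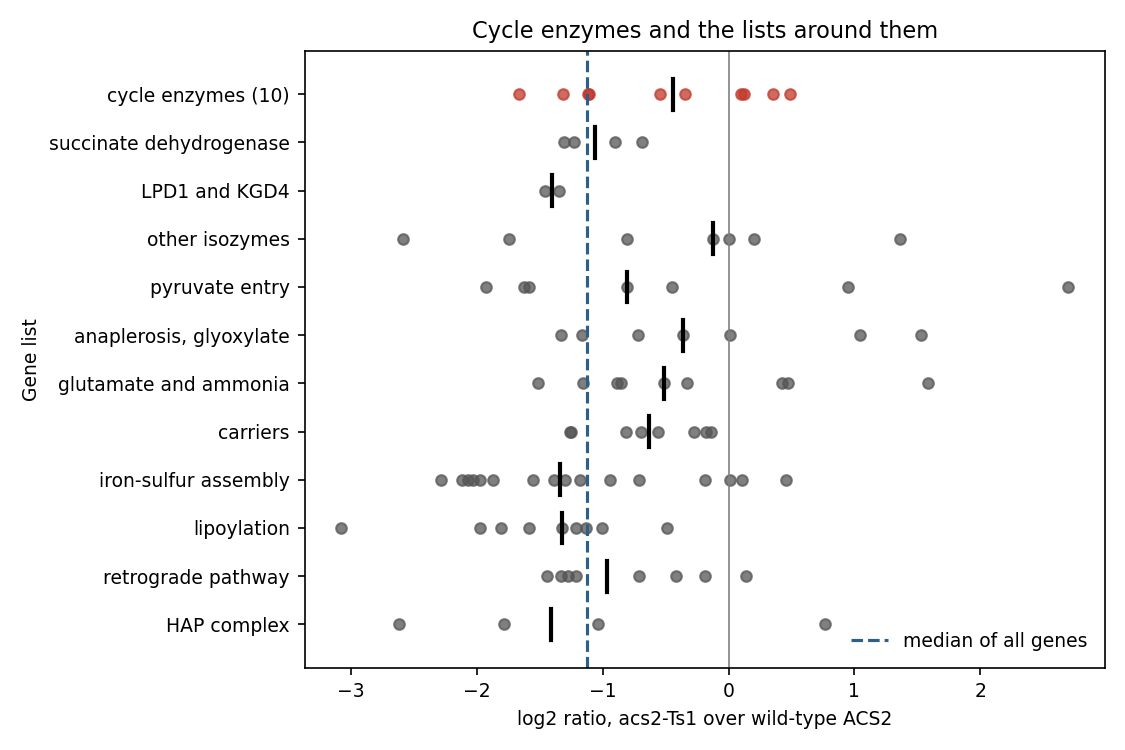
Log2 ratio (acs2-Ts1 over ACS2) for each gene (points) of the cycle enzymes and 11 related lists, with a black bar at each list's median and a dashed line at the median of all genes. The cycle enzymes spread on both sides of the dashed line, with a median of -0.44, while the medians of iron-sulfur assembly and lipoylation lie slightly to the left of it, at -1.34 and -1.33.

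Carriers that move cycle intermediates across the inner membrane read lower in 8 of 8 cases, against 86.4% of all genes, but SFC1 was under the background limit in both samples and shows no direction. Lower by 2-fold or more were 2, against 55.9% of all genes. The list median was -0.63, which is 0.49 above all genes. CTP1, the citrate carrier, and AGC1, for aspartate and glutamate, were 2.39-fold and 2.38-fold lower. ODC1 and ODC2, for 2-oxoglutarate and related acids, had log2 ratios of -0.70 and -0.18, and OAC1, for oxaloacetate, one of -0.27. SFC1, which exchanges succinate for fumarate, read 20.4 in acs2-Ts1 and 22.5 in wild type.

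The cycle enzymes depend on cofactors made in the same compartment. Of 16 genes of mitochondrial iron-sulfur cluster assembly, which serves aconitase and succinate dehydrogenase, 10 were lower by 2-fold or more, near the 55.9% of all genes, and 0 were higher by that much, against 3.67%. The list median was -1.34, or -0.22 set against all genes. BOL3 was 4.88-fold lower and GRX5 4.09-fold lower. ARH1 and JAC1 were 4.33-fold and 4.19-fold lower, but read only 85.3 and 90.3 in acs2-Ts1, near background. ISU1, a scaffold on which clusters form, read 1490.0 in acs2-Ts1 and 1087 in wild type, ISU2, the other scaffold, read 458 and 454 in the same order, and ISA1, which acts in cluster delivery to aconitase, read 760 and 705. Thus the scaffold genes and ISA1 were at or above the wild-type level while most of the list was lower. ISA2 was 2.46-fold lower, at 294 in acs2-Ts1 and 721 in wild type. IBA57 read 76.8 in acs2-Ts1, in the range of background, and 281 in wild type. SSQ1 read 68.6 in acs2-Ts1, also in that range, and 270 in wild type. Of 9 measured genes for lipoic acid, the cofactor of KGD2 and LAT1, 9 were lower, against 86.4% of all genes, and 8 were lower by 2-fold or more, against 55.9%, with CEM1 among these 8. The list median was -1.33, or -0.20 set against all genes. ETR1, of the mitochondrial fatty acid synthesis that feeds lipoylation, was 3.50-fold lower and LIP5, lipoate synthase, 2.01-fold lower, while GCV3, a lipoylated protein of glycine cleavage, read 5306 in acs2-Ts1 and 7446 in wild type. CEM1 read 27.5 in acs2-Ts1, under the background limit, and 232 in wild type. LIP2, HTD2 and OAR1, also among these 8, read 68.9, 77.6 and 92.6 in acs2-Ts1, in or near the range of background.

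Transcripts of the retrograde pathway and the HAP complex, the known regulators, were read as well. In the retrograde pathway 7 of 8 genes were lower, against 86.4% of all genes, and 4 of 8 were lower by 2-fold or more, against 55.9%. The list median was -0.96, or 0.16 set against all genes. RTG3, a subunit of the transcription factor, was 2.71-fold lower, at 102 in acs2-Ts1 and 278 in wild type, and RTG2, its upstream activator, was 2.52-fold lower, at 261 and 658 in the same order. MKS1, a negative regulator, was 2.43-fold lower. RTG1 read 54.0 in acs2-Ts1 and 88.5 in wild type, near background. In the HAP complex the DNA-binding subunit genes were lower and the activating subunit HAP4 was higher. HAP4 read 304 in acs2-Ts1 and 178 in wild type, 1.70-fold higher and 1.89 above all genes on the log2 scale. HAP2 was 2.05-fold lower, at 130.4 in acs2-Ts1 and 268 in wild type. HAP3 read 61.2 in acs2-Ts1 and 211 in wild type, and HAP5 read 44.4 and 273 in the same order, and as the acs2-Ts1 values lie in the range of background no fold is given. The HAP median was -1.41, but -1.04 without HAP5, the gene under the background limit, which puts it above the median of all genes. Transcript levels hold no measure of the location or activity of these factors.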

How the data were processed

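Total RNA was measured on Affymetrix arrays with biotin labelling. The deposited values are probe set intensities. Per the labels' descriptions and the design text, background was corrected on 4 arrays with RMA, and the authors averaged the 2 arrays of each strain and normalized the means with a lowess curve on controls, avoiding scaling between strains because expression differed globally. Which controls were used is not given in the sources used here. An error in that step would shift all genes together, or genes of one intensity range.

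Of 10928 probe sets, 5498 matched a gene through the platform annotation and RefSeq gene identifiers of the R64 assembly, giving 5449 genes. Where a gene had several probe sets, the brightest one lacking a suffix letter was read. Log2 ratios (acs2-Ts1 over ACS2) had no pseudocount. The background limit is the 95th percentile over 1746 probe sets for genes of other species. The trend used a lowess span of 0.3. It was checked only on data simulated with a straight-line trend, so the check does not cover the curved trend of these arrays. With 1 sample per strain no test was possible, and the number of arrays limits the precision. The groups came from the genotype label, since both titles carry the abbreviation for wild type. Genes were named as all 10 members and up to 4 genes at each end of each related list, with ISA2, IBA57 and some genes near background added later. Members and lists were chosen with earlier results of these data known. Alternatives covered centring, trend, probe sets, pseudocount, background, filters and fold threshold. Python 3.11.15, statsmodels 0.14.6 and pandas 2.3.3 were used.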

Additional observations from a re-analysis of the deposited data

How the results depend on the processing

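With 1 sample per strain, no replicate could be left out. No paired analysis was possible because each strain has a single sample. As deposited, the median log2 ratio of the cycle enzymes was -0.44, with 6 of 10 lower, 4 of them by 2-fold or more, and 0 higher by 2-fold. Centred on the median of all genes, the median turned to 0.68, with 2 lower, 0 of them by 2-fold, and 4 higher by 2-fold or more, KGD1 turned to 0.0092 and KGD2 to 0.013, and the succinate dehydrogenase median to 0.060. With the trend with level removed, the members' median turned to 0.20 with 0 lower by 2-fold, and the HAP median to 0.039. That median was -1.04 without genes below the background limit and -0.14 without those under the 25th percentile of level, against -1.41 as deposited. Both turns follow from what was subtracted. Over all genes the 2-fold threshold was then passed by 668 higher and 221 lower genes, in place of 200 and 3048 as deposited. Centred on all 69 bacterial and phage control probe sets, many of them near background, 2 members were lower by 2-fold or more. At a 3-fold threshold 1 was lower, FUM1, and at 1.5-fold the counts were 4 and 0. Adding 32 to both values and subtracting background left these counts at 4 and 0. Centring on the 27 hybridization controls, added after seeing the data, did so too, but their median log2 ratio was only -0.0050. Averaging probe sets and both filters on low values could not change the counts. Each member has 1 probe set, and all 10 pass both filters. Under these settings the medians ranged from -0.44 to -0.43. Signals near background limit IDP2, IDP3, CIT3, HAP3, HAP5, CEM1, ARH1, JAC1, IBA57, SFC1, MLS1 and RTG1, and none of the members. The same limit holds for SSQ1, LIP2, HTD2, OAR1 and, in the list of anaplerosis and the glyoxylate cycle, DAL7. All of these genes enter the counts and medians of their lists.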

Other observations

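The genes next to the cycle genes on the chromosomes were read as a description of their surroundings. Of 18 measured neighbours of the 10 members, 14 were lower, against 86.4% of all genes, 9 of them by 2-fold or more, against 55.9%, and 3 were higher by 2-fold or more, against 3.67%. Around CIT1, ACO1, IDH1 and IDH2, 6 of 8 neighbours were lower, of which BAG7 and ATO2 were close to level. NCE103, the carbonic anhydrase gene next to IDH1, was one of those 3, with a log2 ratio of 1.19 at 3478 in acs2-Ts1 and 1522 in wild type, while GPI15 on the other side of IDH1 had a log2 ratio of -1.30. ACO1 lies beside MET17, the gene that carries the met15delta0 deletion in both strains, and that probe set read 77.5 in acs2-Ts1 and 47.9 in wild type. STT4, on the other side of ACO1, had a log2 ratio of -1.67. MPC3, the pyruvate carrier gene with a log2 ratio of 2.70, is the neighbour of LSC2, which had -0.34, and SRX1, the sulfiredoxin gene beside MDH1, had 1.28 where MDH1 had -1.32. These neighbours were named after their values were seen, and no test was made.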
